A study of Mus musculus with 12 samples.

Results

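A set of 9 members of the apolipoprotein L family was followed across conventional dendritic cells (cDCs) of the mouse spleen: Apol7a, Apol7b, Apol7c, Apol7e, Apol6, Apol8, Apol9a, Apol9b and Apol10b. Each is the row of the deposited expression table that carries its symbol, 9 rows of 55322. The members were selected on FPKM values of these same libraries, and which contrast decided is not recorded, so every difference of a family member below is a description with its standard error (SE), and no p-value is given for it. Of the 9, 7 had a read in any library, and 2, Apol7c and Apol10b, passed the filter of at least 1 FPKM in at least 3 libraries. FPKM is the read count of a gene scaled by the length of its exons and by the total of the library. The table holds 6 further rows with related symbols (Apol7d, Apol10a, Apol11a, Apol11b, Apol10c-ps and Apold1).

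The series concerns cDCs of lymphoid origin, which it set beside other cDCs of the same organ. Sample titles divide each subset, cDC1 and cDC2, into libraries marked L and libraries marked M, 3 libraries in each of the 4 groups, and do not spell out the letters. All 4 groups carry the label Il7r-cre; Rosa26-lsl-tdTomato, a genotype in which Cre from the Il7r locus switches on a red reporter for good, and Il7r is active in lymphoid progenitors and in lymphocytes. The design and growth texts instead describe the animals as naive C57BL/6J wild types, 7 to 8 weeks old, and no label says which libraries were sorted on the reporter. Replicates are not tied to animals, so their spread may be technical.

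Apolipoproteins L are lipid-binding proteins that can insert into membranes and form channels, and human APOL1 is known for lysing trypanosomes. Mouse APOL7C is known from cDC1s, the subset specialised in presenting engulfed antigen on MHC class I (cross-presentation), where it is recruited to phagosomes and ruptures them, so that antigen reaches the cytosol. NADPH oxidase of the phagosome takes part in that step. Apol6, Apol9a and Apol9b are known as interferon-inducible genes.

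The depth ran from 15879864 reads in M-cDC2 replicate 2 to 24498235 in M-cDC2 replicate 1. The subset labels held in every library: 6 cDC1 markers summed to between 1191 and 1286 FPKM in cDC1 libraries and to between 13.9 and 26.0 in cDC2 libraries, while 6 cDC2 markers summed to between 677 and 927 in cDC2 libraries and to between 10.4 and 13.6 in cDC1 libraries. Libraries labelled L stood apart in markers of other cells. Their 5 B cell markers summed to between 174 and 487 FPKM in L-cDC1 and between 350 and 2223 in L-cDC2, against 8.55 to 15.8 in M-cDC1 and 27.8 to 42.2 in M-cDC2, with none of the 5 at 0 throughout a group. Igkc made up most of the L sums, with means of 245 FPKM in L-cDC1 and 990 in L-cDC2. Ms4a1 overlapped between L-cDC1 (8.03 to 10.9 FPKM) and M-cDC1 (6.01 to 9.31). The others were higher in L without overlap in both subsets, Cd79b with means of 60.8 in L-cDC2 and 29.0 in M-cDC2. The 7 markers of T and NK cells summed to between 9.77 and 96.5 FPKM in L libraries and to at most 0.631 in M libraries. The sum of the monocyte and macrophage markers (6 genes), most of it Lyz2, went the other way, with 318 to 472 FPKM in L-cDC2 and 1013 to 1218 in M-cDC2, and 327 to 336 in L-cDC1 and 427 to 486 in M-cDC1. In cDC1 only Lyz2 and Csf1r were lower in L without overlap, while Adgre1, C1qa, Vcam1 and Spic overlapped. In cDC2 Vcam1 and Spic overlapped. The 4 markers of mature DCs summed to between 90.2 and 106 FPKM in L-cDC1 and between 49.1 and 68.7 in M-cDC1. Ccr7 made up most of these sums, and Ccl22 and Il4i1 overlapped. In cDC2 the sums overlapped, with 80.8 to 93.9 FPKM in L-cDC2 and 74.5 to 96.0 in M-cDC2.

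The bases just upstream of Apol7c are shown because its close relatives, Apol7b and Apol7e, share most of them and yet had few reads counted. Over the 12 libraries these were 1 read of Apol7b and 146 of Apol7e. Reads that match several genes may be missing from these counts, as set out below. Each line gives the 250 bases before the start of the RefSeq gene model on build GRCm38.p6, 5′ to 3′ on the strand of the gene: Apol7c at chr15:77533316-77533565 (minus strand), Apol7b at chr15:77447461-77447710 (minus strand) and Apol7e at chr15:77698639-77698888 (plus strand). Capitals in Apol7c mark the motif matches described below. In Apol7b and Apol7e they mark bases that differ from the base of Apol7c they align with, and bases absent from one of the pair are not marked.
Apol7c: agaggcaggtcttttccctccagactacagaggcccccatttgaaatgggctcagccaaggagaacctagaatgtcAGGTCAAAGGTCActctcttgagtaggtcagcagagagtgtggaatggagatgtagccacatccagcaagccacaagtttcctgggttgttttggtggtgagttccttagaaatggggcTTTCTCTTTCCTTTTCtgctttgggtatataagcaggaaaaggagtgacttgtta
Apol7b: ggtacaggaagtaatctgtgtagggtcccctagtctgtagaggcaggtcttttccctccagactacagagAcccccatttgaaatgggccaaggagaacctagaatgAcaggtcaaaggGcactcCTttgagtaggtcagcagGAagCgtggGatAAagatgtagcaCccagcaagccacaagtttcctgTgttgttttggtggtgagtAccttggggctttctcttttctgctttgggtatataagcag
Apol7e: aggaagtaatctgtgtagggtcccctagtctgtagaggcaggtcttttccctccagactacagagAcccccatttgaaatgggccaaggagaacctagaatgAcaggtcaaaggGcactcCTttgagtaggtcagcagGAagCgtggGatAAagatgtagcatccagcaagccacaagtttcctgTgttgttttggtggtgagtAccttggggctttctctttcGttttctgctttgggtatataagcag

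Apol7b and Apol7c matched at 85.7% of 231 aligned columns, Apol7c and Apol7e at 87.9% of 231, and Apol7b and Apol7e at 97.6% of 250. RefSeq windows were found for 8 of the 9 members, and 10 windows in all since Apol9a and Apol9b had 2 each. Apol6 was not matched. An interferon-stimulated response element (ISRE), that is GAAA, any 2 bases and GAAA, searched on both strands, matched in 2.98% of 32851 windows of this length. Among the members it matched in Apol7c, Apol7e, Apol9a and Apol9b. In Apol7c it matched at 2 overlapping places on the opposite strand, GAAAGAGAAA and GAAAAGGAAA, whose leftmost bases as printed stand 55 and 49 bases before the start. Apol7e held GAAAGAGAAA and GAAAACGAAA at 36 and 30 bases. Both windows of Apol9a and of Apol9b held GAAACTGAAA and GAAATGGAAA. An AP-1 site (TGANTCA, in 6.75% of all windows) matched in 1 window each of Apol9a and Apol9b, and the ETS-IRF composite (GGAA, any 2 bases and GAAA, in 756 windows) matched in no member. A direct repeat of AGGTCA with 1 free base between the copies, which was added after the sequence was seen, matched in 11 of the 32851 windows, or 0.0335%, 1 of them that of Apol7c at 174 bases. These are matches of letters, and binding of a factor was not measured.

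Apol7c, the phagosome-damaging member, was one of the most abundant messages of cDC1s. Its level was 554, 614 and 624 FPKM in the 3 L-cDC1 libraries and 599, 608 and 624 FPKM in the 3 M-cDC1 libraries. In L-cDC2 it was 58.9, 48.4 and 62.5 FPKM, and in M-cDC2 76.4, 72.4 and 80.0 FPKM. All 6 cDC1 libraries stood above all 6 cDC2 libraries, the L-cDC1 and M-cDC1 values overlapped, and each L-cDC2 value lay below each M-cDC2 value. For this and the other separations of libraries given below, the share of all genes that separate likewise was not counted. With 3 libraries a group they are descriptions only. Group means were 597 ± 37.9 FPKM in L-cDC1, 610 ± 12.7 in M-cDC1, 56.6 ± 7.34 in L-cDC2 and 76.2 ± 3.81 in M-cDC2 (SD, n = 3). Counted in reads, these are 21571 to 28241 reads per cDC1 library and 2171 to 3855 per cDC2 library, so counting error is small beside the spread between libraries. Among 21821 protein-coding genes ordered by mean FPKM, Apol7c stood at place 41 in L-cDC1 and 45 in M-cDC1, and at place 881 in L-cDC2 and 621 in M-cDC2. It made up 98.5% of the FPKM summed over the 9 members in L-cDC1, 98.7% in M-cDC1, 95.6% in L-cDC2 and 97.2% in M-cDC2.

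**Figure D1:**
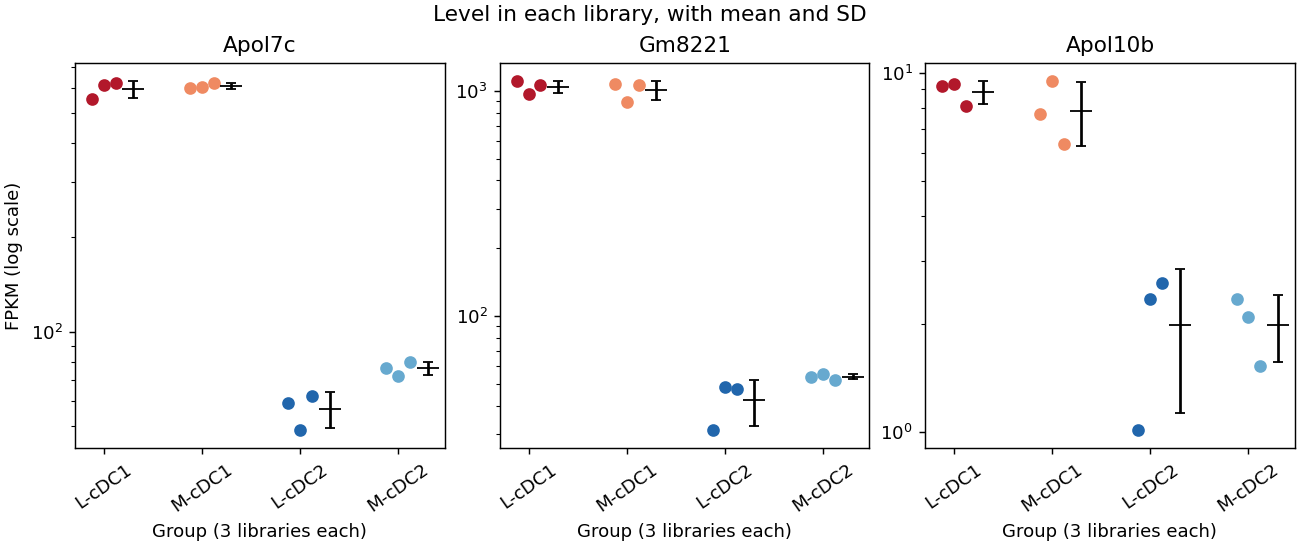
Level of Apol7c, the neighbouring pseudogene Gm8221 and Apol10b in each of 12 libraries (FPKM, log axis), with the mean and SD of each group of 3 beside the points. For all 3 rows the cDC1 libraries lie above the cDC2 libraries, and for Apol7c the 3 L-cDC2 values lie below the 3 M-cDC2 values.

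Differences were fitted with limma as log2(FPKM + 1) over all genes tested. The subset difference of Apol7c was 2.99 (SE 0.10) in M, a ratio of mean FPKM of 8.01, and 3.38 (SE 0.10) in L, a ratio of 10.6. Both tested members, Apol7c and Apol10b, were called higher in cDC1 in M, where 38.1% of the 12434 genes tested were called in either direction and 12.7% as higher. Both were also called higher in L, beside 39.5% in either direction and 12.9% as higher. The median over all genes tested was -0.18 in M and -0.19 in L, and median-of-ratios scaling brings these to -0.03 and -0.04, a shift of over 0.1 that is small beside the differences of Apol7c and Apol10b.

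Within cDC1 the L and M libraries gave nearly the same Apol7c level. L minus M was -0.03 (SE 0.10), with overlapping groups, and its sign turned to 0.13 under quantile normalization. No member was called in that contrast, where 0.394% of genes were. In cDC2, L minus M was -0.43 (SE 0.10), a ratio of mean FPKM of 0.742, and Apol7c was the 1 member called, where 1.83% of genes were called in either direction and 0.788% as lower. The call did not hold under a filter at 0.1 FPKM (-0.43) or with limma-voom on reads recovered from the FPKM values (-0.44). When each of the 12 libraries was left out in turn the difference lay between -0.50 and -0.32, and it was called only without L-cDC1 replicate 1 or without L-cDC2 replicate 3. The L minus M difference of Apol7c in cDC1 minus that in cDC2 was 0.40 (SE 0.14) and was not called, beside 0.298% of genes called. No member was called in it.

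In L-cDC2 the lower Apol7c level went with the B cell marker sums of 350 to 2223 FPKM, mostly Igkc, and the lower monocyte and macrophage sums, mostly Lyz2, given above. L-cDC1 had B cell marker sums of 174 to 487 FPKM, against 8.55 to 15.8 in M-cDC1, and also lower monocyte and macrophage sums. The Apol7c difference there was -0.03 (SE 0.10). The part of the marker sums in the Apol7c difference of either subset was not tested. In a bulk library, fewer Apol7c-expressing cells and less Apol7c RNA per cell cannot be told apart.

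The cDC2 libraries kept a larger share of the cDC1 level of Apol7c than of 6 cDC1 markers. Its mean in cDC2 was 9.48% of that in cDC1 within L and 12.5% within M. The same share was 0.427% and 0.718% for the chemokine receptor Xcr1, 0.777% and 1.98% for the dead-cell receptor Clec9a, 2.07% and 2.22% for the transcription factor Irf8, 0.405% and 0.660% for Cd8a, 2.53% and 3.12% for the RNA sensor Tlr3, and 1.90% and 1.31% for the integrin Itgae. The part of cDC1s in the Apol7c of cDC2 libraries was not tested.

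**Figure D2:**
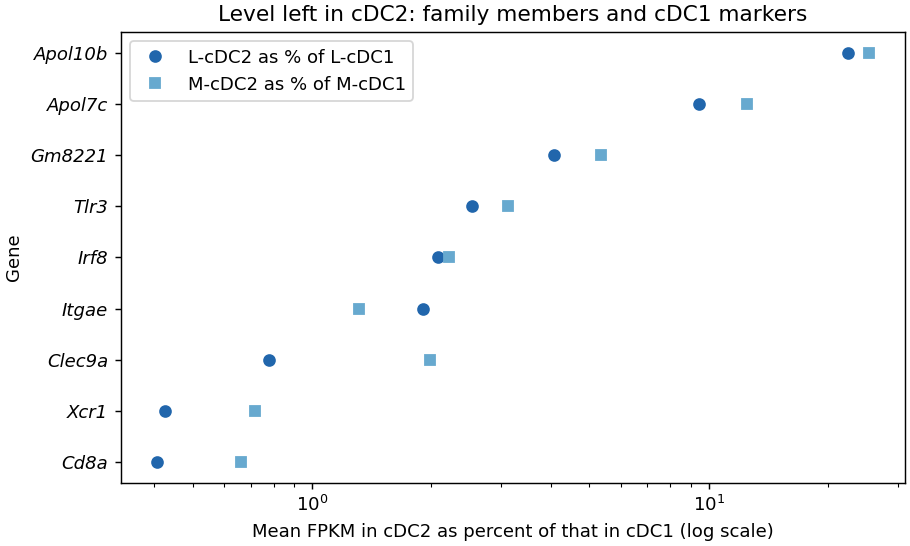
Mean FPKM in cDC2 as a percentage of the mean in cDC1 (log axis), within L and within M, for Apol7c, Apol10b, the pseudogene Gm8221 and 6 cDC1 markers. Gm8221, which is not one of the 9 members, lies between the markers and Apol7c. Apol10b lies at 22.4% and 25.3% and Apol7c at 9.48% and 12.5%, to the right of all 6 markers.

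Apol10b was the other member above the filter, at a much lower level. Its level was 9.19, 9.29 and 8.11 FPKM in the L-cDC1 libraries, and in M-cDC1 it was 7.70, 9.51 and 6.35 FPKM. It was 1.01, 2.35 and 2.61 FPKM in L-cDC2 and 2.35, 2.09 and 1.53 FPKM in M-cDC2. All cDC1 libraries again lay above all cDC2 libraries, and L and M overlapped in both subsets. Group means were 8.86 ± 0.654 FPKM in L-cDC1, 7.85 ± 1.58 in M-cDC1, 1.99 ± 0.857 in L-cDC2 and 1.99 ± 0.419 in M-cDC2 (SD, n = 3). The log2 difference of Apol10b between subsets was 1.56 (SE 0.22) in M and 1.77 (SE 0.22) in L, or 3.95-fold and 4.46-fold in mean FPKM. Its L minus M difference was 0.17 (SE 0.22) in cDC1 and -0.04 (SE 0.22) in cDC2, the latter with a sign that turned when single libraries were left out, up to 0.23. With 69 to 134 reads per M-cDC2 library and 56 to 119 per L-cDC2 library, Apol10b varied by 43.1% (SD over mean) in L-cDC2, where Apol7c varied by 13.0%. Across the 12 libraries the log2 values of Apol7c and Apol10b had a Pearson r of 0.951, a description in which all points share the subset difference.

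Apol7e, the member nearest in sequence to Apol7b, went the other way at a level close to nothing. It had 46, 34 and 18 reads in L-cDC2, or 0.800, 0.646 and 0.411 FPKM. In M-cDC2 it had 35, 0 and 4 reads, with the 35 in replicate 1. L-cDC1 had 5, 0 and 0 reads and M-cDC1 had 0, 2 and 2. All 3 L-cDC2 libraries thus stood above the 6 cDC1 libraries, whose highest value was 0.110 FPKM, while M-cDC2 overlapped every other group. Apol7e failed the filter at 1 FPKM. It passed a filter at 0.1 FPKM only because of its L-cDC2 libraries, the group where it is high. At that filter its cDC1 minus cDC2 difference was -0.64 (SE 0.16) in L, which was called. So were 5162 of the 18722 genes tested there, in either direction, and the call of Apol7e is only a description. Its cDC1 minus cDC2 difference was -0.22 (SE 0.16) in M, and its L minus M difference in cDC2 was 0.42 (SE 0.16), neither of which was called. The kits used do not mark the strand, and 13.4% of the exon bases of Apol7e lie within exons of the long noncoding RNA Gm36329 on the opposite strand, a row with 0 FPKM in the mean of every group. B cell markers are also highest in L-cDC2, and their part in the Apol7e reads was not tested.

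The remaining 6 members were at or near 0. Apol8 had 8 reads in all, 5 in an L-cDC1 library, 1 in an L-cDC2 library and 2 in an M-cDC2 library. Apol7a had 2 reads, Apol7b 1 and the interferon-inducible Apol9a 1. Apol6 and Apol9b, 2 further interferon-inducible members, had 0 reads in all 12 libraries. A count of 3 reads, set here as an approximate limit for a count of 0 and not a ceiling, corresponds to between 0.0272 and 0.0420 FPKM of Apol6 and between 0.0672 and 0.104 FPKM of Apol9b depending on the library, for counting error only. Of the related rows outside the 9, Apold1 reached 0.588 FPKM in 1 library, Apol11b 0.666 and Apol11a 0.210, Apol10a had 1 read, and Apol7d and Apol10c-ps had none.

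**Figure D3:**
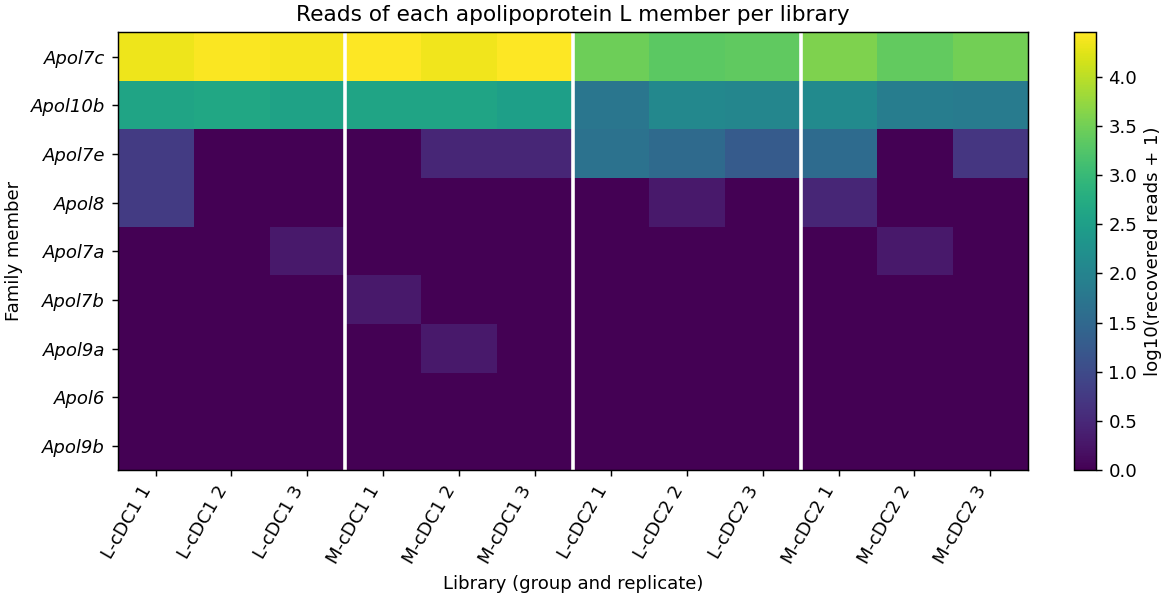
Reads of each of the 9 members in each of 12 libraries, as log10(reads + 1) on the colour scale, with white lines between groups. Apol7c and Apol10b are filled throughout and darker in cDC2, Apol7e is seen mostly in L-cDC2 and M-cDC2 replicate 1, and the lower 6 rows are nearly empty.

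How far a read can be told apart between the members limits these values. In GENCODE M21 transcripts, 74.4% of the 50-base stretches of Apol7c occur in no other gene, and 93.8% of its 100-base stretches. For Apol7b these shares were 27.6% and 45.5%, and for Apol7e 25.9% and 39.7%, with 69.3% and 53.8% of the stretches of Apol7b found in Apol7e. Apol10b (93.9% and 100%), Apol6 (98.3% and 100%) and Apol8 (100% and 100%) are nearly free of such sharing, while Apol9b held 47.7% and 63.4% of its own, the rest shared with Apol9a. The read length and how the counting treated reads that match several genes are not given in the sources used here. A low value of Apol7b, Apol7e, Apol9a or Apol9b may therefore miss reads that match a pair of genes.

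The row that shares most with Apol7c is Gm8221, annotated as an unprocessed pseudogene, which was singled out after its values were seen. It lies within the same cluster on the plus strand of chromosome 15, from 77506034 to 77510837 in the deposited table, whose build is not given, and Apol7c lies from 77409052 to 77417516 on the minus strand. The annotated Gm8221 sequence spans 1110 bases and matched Apol7c at 97.0% of 1110 aligned columns, with 33 substitutions and no gap, starting at the first coding base of Apol7c. By comparison Apol7b matched Apol7c at 86.6%, Apol7e at 86.1% and Apol7a at 84.0% of the columns aligned. The first 150 bases of both are shown (GENCODE M21, GRCm38, strand of the gene), because their only difference lies in the start codon, where the capital marks it.
Apol7c: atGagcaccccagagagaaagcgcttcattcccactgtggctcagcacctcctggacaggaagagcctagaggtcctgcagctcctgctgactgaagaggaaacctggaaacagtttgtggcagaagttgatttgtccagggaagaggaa
Gm8221: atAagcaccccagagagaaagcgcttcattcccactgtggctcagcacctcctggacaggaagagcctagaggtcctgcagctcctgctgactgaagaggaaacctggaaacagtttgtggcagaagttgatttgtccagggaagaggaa

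Counted from 1 at the first coding base of Apol7c, the substitution is G3A, and the next ones are G159T and T174A. Despite its annotation Gm8221 had the higher FPKM of the pair in cDC1, although not the higher read count: its reads were 0.789 to 1.07 times those of Apol7c there, below 1 in 5 of 6 libraries. Of its 50-base stretches 54.95% occur in no other gene and 30.8% occur in Apol7c, and of its 100-base stretches 91.2% and 7.02%. How many reads of the pair were counted to the wrong row was not tested. L-cDC1 libraries had 1101, 970 and 1057 FPKM of it and M-cDC1 libraries 1068, 890 and 1060 FPKM. L-cDC2 libraries had 31.2, 48.6 and 47.7 FPKM and M-cDC2 libraries 54.0, 55.3 and 52.3 FPKM. As with Apol7c, all cDC1 values lay above all cDC2 values and the L-cDC2 values below the M-cDC2 values. The log2 difference of Gm8221 between subsets was 4.19 in M and 4.61 in L (SE 0.14), larger than that of Apol7c, and its L minus M difference was 0.05 in cDC1 and -0.36 in cDC2 (SE 0.14), neither of which was called. The FPKM of Gm8221 over that of Apol7c was between 1.46 and 1.99 in the 6 cDC1 libraries and between 0.529 and 1.01 in the 6 cDC2 libraries, with no overlap. This ratio is per annotated length, 1110 bases for Gm8221 and 2060 for Apol7c, and the Gm8221 model covers only the stretch that matches the coding part of Apol7c. As a share of all reads, Gm8221 was 24.5-fold higher in cDC1 than in cDC2 in L and 18.7-fold in M. The sum of the pair was 14.6-fold higher in L and 10.9-fold in M. In cDC2 the share of all reads taken by the pair did not overlap between L and M, although the summed read counts themselves did. The highest share in an L library lay below the lowest in an M library. With the reads of Gm8221 added, Apol7c had an L minus M log2 difference of -0.40 in cDC2, which was called.

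The family lies in a stretch of 712 kb on chromosome 15 from Apol6 to Apol8 as the deposited table places them, and few other rows within it were expressed. Apart from Apol rows, 20 rows of the table fall within the stretch, 9 of them at 0 in all libraries and 2 above the filter, Gm8221 and 1700025B11Rik. The latter, an uncharacterised protein-coding gene 24.9 kb upstream of Apol7c, had means of 2.17 ± 0.655 FPKM in L-cDC1, 1.37 ± 0.619 in M-cDC1, 0 in L-cDC2 and 0.0622 ± 0.108 in M-cDC2 (SD, n = 3). It rose in cDC1 by 1.13 (SE 0.25) in M and 1.65 (SE 0.25) in L on the log2 scale. Rbfox2, a splicing factor gene that fills much of the stretch, was at 0.00360 FPKM or less in every group mean.

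**Figure D4:**
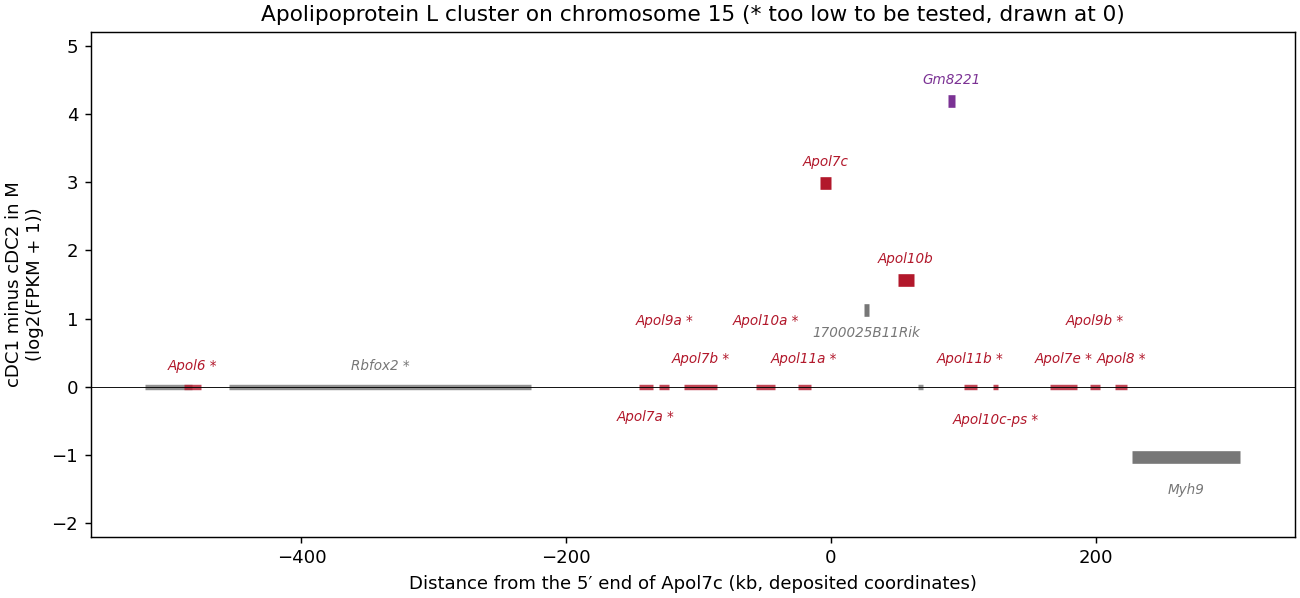
Log2 difference between cDC1 and cDC2 in M for rows of the cluster, against distance in kb from the 5′ end of Apol7c, with the width of each block showing the extent of the gene; starred rows were too low to be tested and are drawn at 0. Gm8221 (4.19), Apol7c (2.99), Apol10b (1.56) and 1700025B11Rik (1.13) lie together above 0 while Myh9, at the right edge, lies at -1.02.

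Protein-coding genes outside the family within 500 kb of the stretch were compared as a whole, 24 of 35 passing the filter. Between subsets 4 rose in cDC1, 4 fell and 16 did not pass the test in M, and 4 rose, 6 fell and 14 did not pass in L, where 2 were called lower under median-of-ratios scaling. Over all genes tested 38.1% were called in M and 39.5% in L, in either direction, so the neighbours were near that share. Ncf4, among the 6 that fell in L, is also counted with the oxidase subunits below. The median of the 24 was -0.11 in M and -0.23 in L, beside -0.18 and -0.19 over all genes tested. Adck5, a kinase-like gene of mitochondria, rose by 1.55 in M (limma, adjusted p = 7.18e-06) and 1.43 in L (adjusted p = 1.54e-05). Arhgap39 was lower in cDC1 in both (-1.69 and -1.48), as was Myh9, the non-muscle myosin heavy chain gene next to Apol8 (-1.02 and -0.70). Several other calls were fragile. Vps28, Tonsl and Ppp1r16a were no longer called lower in L without L-cDC1 replicate 1 or 2 or without L-cDC2 replicate 1 or 2, Ppp1r16a also without L-cDC1 replicate 3, and Ppp1r16a and Foxred2 were no longer called lower in M without M-cDC1 replicate 2 or M-cDC2 replicate 1. Rpl8 was no longer called higher in L without L-cDC1 replicate 2 or 3 or L-cDC2 replicate 1 or 3, and the call of Txn2 as higher was lost in 7 of 12 leave-one-out fits in L and in 10 of 12 in M, and in M also with limma-voom and with replicate number as a block. Between L and M, 0 neighbours passed the limma test in either subset (3 at an unadjusted p under 0.05 in cDC1 and 0 in cDC2), and limma-voom also called 0.

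The genes whose log2 level ran most like that of Apol7c over the 12 libraries were taken from 7714 genes with a group mean of at least 5 FPKM. Pearson r was highest for Fndc7 and Naaa (both 0.998), followed by Pdia5 (0.997), Clec9a, Ppt1, Cpq, Casp6, Cst3 and Lsr (0.996 each) and Ifi211 (0.995). Among them are the dead-cell receptor gene Clec9a, the lysosomal amidase and thioesterase genes Naaa and Ppt1, and Cst3, which encodes an inhibitor of cysteine proteases. Naaa had means of 651 FPKM in L-cDC1, 695 in M-cDC1, 13.2 in L-cDC2 and 22.9 in M-cDC2. Gm8221 stood at place 23 of this order, with an r of 0.993. For Apol10b the highest were the glycolytic enzyme gene Pgam1 (0.992), Hddc2 (0.991) and Hacd2 (0.978). All these r values are descriptions in which the points share the subset difference.

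Because several members are interferon-inducible, a list of 36 type I interferon genes (receptors, factors and targets) was set beside the family, and all 36 passed the filter. Their pattern between subsets was largely opposite to that of Apol7c. In M, 4 rose in cDC1, 24 fell and 8 did not pass the test (median -1.36), and in L 4 rose, 22 fell and 10 did not pass (median -1.27), against medians of -0.18 and -0.19 over all genes tested. Of all genes tested, 38.1% were called in M, 12.7% as higher and the others as lower. In L the shares were 39.5% called and 12.9% as higher. Of 2 receptor genes, Ifnar2 fell (-1.36 in M and -0.93 in L). Of 6 transcription factor genes, Irf8, which cDC1s need to develop and which is also among the cDC1 markers, rose by 5.42 and 5.51, while Stat2 fell (-0.81 and -1.03). Irf1 had differences of -0.61 in M and -0.37 in L, the latter call lost under median-of-ratios scaling (adjusted p = 0.298) and without L-cDC1 replicate 1, L-cDC2 replicate 2 or L-cDC2 replicate 3. Of 28 targets, 21 fell and 3 rose in M, and 19 fell and 3 rose in L. Rtp4, a chaperone of receptors, had a mean of 0.512 ± 0.259 FPKM in L-cDC1 and 57.3 ± 5.29 in L-cDC2 (SD, n = 3), with a difference of -5.28 in L and -5.58 in M. Oas2 and Ddx58, sensors of viral RNA, fell as well, with differences of -4.48 and -4.08 in M. Trim30a rose by 1.01 and 1.16 and the antiviral GTPase gene Mx1 by 0.92 and 0.97.

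Between L and M, 0 of the 36 interferon genes passed the limma test in cDC1, with 4 at an unadjusted p under 0.05 and 0 called by limma-voom. In cDC2, 1 passed, Ifitm3, which restricts virus entry: its difference was -0.69 (limma, adjusted p = 0.0133), with means of 614 ± 28.3 FPKM in L-cDC2 and 996 ± 109 in M-cDC2 (SD, n = 3). That call was lost in 4 of 12 leave-one-out fits, with an adjusted p up to 0.0727, in those without L-cDC2 replicate 1 or 2 and without M-cDC2 replicate 2 or 3.

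**Figure D5:**
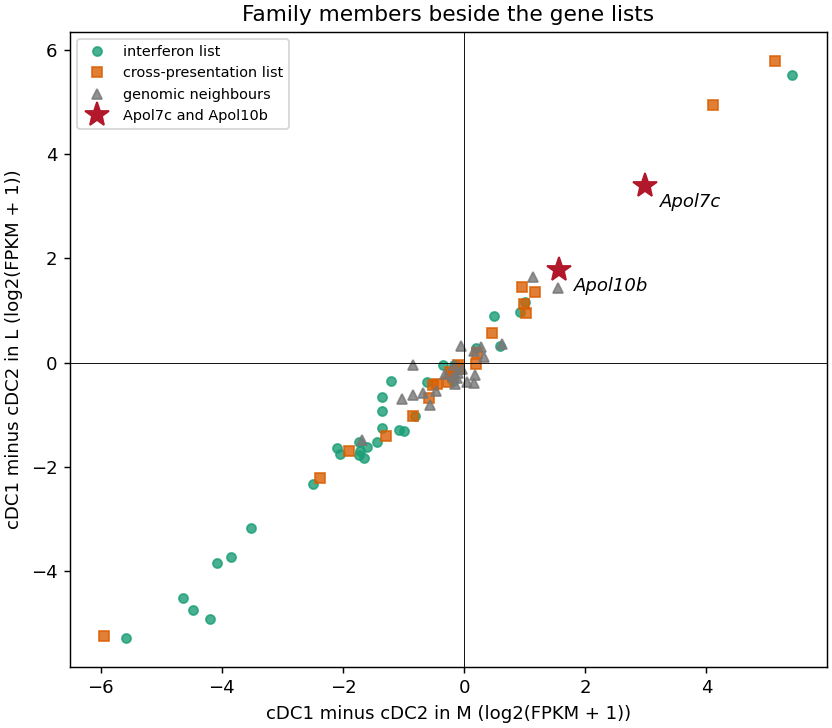
Log2 difference between cDC1 and cDC2 in L against that in M for Apol7c, Apol10b, 36 interferon genes, 23 cross-presentation genes and 24 genomic neighbours (log2(FPKM + 1), 1 point per gene). Apol7c (2.99 and 3.38) and Apol10b (1.56 and 1.77) lie at upper right, where 1 interferon gene, Irf8, and 2 cross-presentation genes, Clec9a and Mpeg1, go further than Apol7c, while most interferon genes lie at lower left.

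Genes of cross-presentation, the process in which APOL7C acts, moved in both directions. Of 23 tested, 7 rose in cDC1, 8 fell and 8 did not pass in M (median -0.18), and 7 rose, 9 fell and 7 did not pass in L (median -0.18), while all genes tested had medians of -0.18 and -0.19. The shares of all genes tested that were called were 38.1% in M and 39.5% in L, with 12.7% and 12.9% as higher and the others as lower. Clec9a, the receptor that directs dead-cell cargo, rose by 5.13 in M and 5.78 in L. Mpeg1, which encodes the pore-forming perforin-2, rose by 4.11 and 4.95, with means of 351 ± 37.0 FPKM in L-cDC1 and 10.6 ± 2.68 in L-cDC2 (SD, n = 3). Wdfy4 rose by 1.02 and 0.95, and Rab43 by 0.95 and 1.45, both known to be needed for cross-presentation by cDC1s. Among peptide loading genes, the transporter genes Tap1 (1.18 and 1.35) and Tap2 (0.99 and 1.12) and the loading factor gene Tapbp (0.47 and 0.57) rose. B2m (-0.58 and -0.68), the light chain of MHC class I, and Lnpep (-0.85 and -1.02), an endosomal peptidase gene, fell.

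Subunits of the NADPH oxidase were lower in cDC1, where Apol7c was high. In M 5 of 6 subunit genes fell and in L 6 of 6. These counts stand beside 38.1% of all genes tested called in M and 39.5% in L. Of all genes tested, 12.7% in M and 12.9% in L were called as higher, and the other calls were lower. Cybb, the catalytic subunit, had means of 1.77 ± 1.58 FPKM in L-cDC1, 0.547 ± 0.263 in M-cDC1, 93.0 ± 0.387 in L-cDC2 and 93.3 ± 8.68 in M-cDC2 (SD, n = 3), a difference of -5.94 in M and -5.25 in L. Rac2, a small GTPase of the complex, had differences of -1.29 and -1.41. Under median-of-ratios scaling the calls of Ncf1 in both, and of Cyba and Ncf4 in L, were lost (adjusted p = 0.133 to 0.519), those of Ncf1 and Ncf4 also without replicate 3 of the cDC2 group compared. The kinase gene Syk, which links Clec9a to the oxidase, fell (-1.91 and -1.69). The 5 membrane repair genes, Chmp2a, Chmp3, Chmp4b, Vps4a and Vps4b, did not pass the test in either, with differences between -0.37 and 0.21.

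Between L and M, 0 of the 23 cross-presentation genes passed the limma test in cDC1 (3 at an unadjusted p under 0.05, 0 by limma-voom). In cDC2, 2 passed, both lower in L as Apol7c was. Clec9a had means of 0.729 ± 0.172 FPKM in L-cDC2 and 2.11 ± 0.665 in M-cDC2 (SD, n = 3), a difference of -0.83 (limma, adjusted p = 0.00732), which was not called by limma-voom (adjusted p = 0.0571). Mpeg1 had means of 10.6 ± 2.68 FPKM in L-cDC2 and 20.3 ± 3.11 in M-cDC2, a difference of -0.89 (limma, adjusted p = 0.0074). Both are far higher in cDC1. The 6 cDC1 markers, Clec9a among them, summed to between 13.9 and 21.3 FPKM in L-cDC2 and between 15.8 and 26.0 in M-cDC2. Irf8 made up most of these sums, with means of 11.8 FPKM in L-cDC2 and 12.1 in M-cDC2. Xcr1 and Clec9a were lower in L-cDC2 without overlap, Xcr1 with means of 0.88 FPKM against 1.62 in M-cDC2. Irf8, Cd8a, Tlr3 and Itgae overlapped, and the mean of Itgae was higher in L-cDC2 (0.746 against 0.386 FPKM). The part of the cDC1 markers in the Clec9a and Mpeg1 differences was not tested.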

How the data were processed

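The data are 12 RNA libraries of sorted spleen cDCs, grouped by sample title into 4 groups of 3. Per the labels' protocols, libraries were made with SMART-Seq HT and Nextera XT kits, which do not mark the strand. The authors deposited 1 table of FPKM values with gene length and coordinates. The submitters' processing notes list STAR 2.7.9a, featureCounts 2.0.1, DESeq2 1.20.0, cutadapt 3.7, Trimmomatic 0.39 and Trim Galore 0.6.7 without saying what each did, and the human build GRCh38, although the symbols are those of the mouse. Multiplied by gene length and by a library total recovered from the spacing of low values, the deposited FPKM values gave whole reads (tolerance 0.01 read) in 100% of cases.

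The 12434 of 55322 rows that reached 1 FPKM in 3 or more libraries were fitted as log2(FPKM + 1) with limma 3.58.1 in R 4.3.3, 1 mean per group, trended variances and 8 residual df. In each of 5 contrasts p-values were Benjamini-Hochberg adjusted over all genes tested, and called means under 0.05 after adjustment. A pseudocount of 1 understates differences of low genes. The members, the gene lists and the alternatives were chosen with earlier results of these data known. Named were all members and related symbols, up to 4 called genes per list and direction with the smallest p (other list genes given, such as Stat2, Ncf1 or Lnpep, and Gm8221 were chosen after their values were seen), and the 10 genes most like Apol7c and 3 most like Apol10b. The script was tested on simulated data. A planned count model, edgeR, was not run because the deposited unit is FPKM; limma-voom on the recovered reads was added after seeing the data, as was adding the reads of Gm8221 to Apol7c. Sequences come from RefSeq (GRCm38.p6) and GENCODE M21 and were aligned with Biopython 1.88.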

Additional observations from a re-analysis of the deposited data

How the results depend on the processing

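Of 179 counts recomputed under other settings (pseudocount 0.1, a filter at 0.1 FPKM, median-of-ratios scaling, quantile normalization, the replicate block, limma-voom and Gm8221 reads added to Apol7c), 175 stayed within 1.5 times the count given. The exceptions were L minus M in cDC2, where members called fell from 1 to 0 under the 0.1 FPKM filter and to 0 under limma-voom and cross-presentation genes called lower from 2 to 1 under limma-voom, and the neighbours called lower in cDC1 in L, from 6 to 2 under median-of-ratios scaling. Of 348 counts with 1 library left out, 325 stayed so. The others gave 0 to 1 members called in L minus M in cDC2, 0 to 1 interferon genes called lower there, and 0 to 1 cross-presentation genes called higher in each L minus M contrast. In cDC1 minus cDC2 they gave 2 to 4 neighbours called higher and 3 to 6 called lower in L, and 2 to 5 called lower in M. Over all genes, L minus M in cDC1 gave 49 calls and 80 with pseudocount 0.1, and the interaction gave 37 and 21 with pseudocount 0.1, 10 with limma-voom. With 1 library left out, L minus M in cDC1 gave 24 to 102 calls, beyond 1.5 times without L-cDC1 replicate 1 (83) or M-cDC1 replicate 1 (102), 2 (24) or 3 (26). L minus M in cDC2 gave 227 calls, and 146 without M-cDC2 replicate 2. The interaction gave 10 without M-cDC2 replicate 2, 14 and 21 without M-cDC1 replicate 2 and 3, and 24 without L-cDC1 replicate 2 or 3.

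Replicate numbers were not taken to pair the samples, since not every same-numbered pair correlated over 0.1: their deviations had correlations of -0.0101 to 0.156 over 18 pairs, with 3 pairs over 0.1. In 23 of 36 comparisons, each a choice among the 3 libraries of another group, a sample correlated best with its own number. This is a hint of pairing from the data and not from the design. With the replicate block the members called were 0, 1, 2, 2 and 0 in the 5 contrasts, as without it, and Apol7c L minus M in cDC2 was -0.43. The block gave 25 interaction calls over all genes, and of the list genes called without it, it lost Txn2 in M and no other.

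Depth limits the members at or near 0, and 3 libraries a group limit the precision of all differences. The edgeR alternative was not run.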
